A study of Mus musculus with 12 samples.

Results

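Heat shock proteins and chaperonins were followed in mouse HoxB8 cells that carried an empty vector, Asxl1-MT2, CSF3R-T618I or both. The members were the gene symbols of the HSP90, HSP70, HSP110, HSP60, HSP10 and small heat shock protein families, the J-domain families DNAJA, DNAJB and DNAJC, the exchange factor Hspbp1 and the subunits of the cytosolic ring chaperonin named Cct, chosen by name alone and without pseudogenes. There were 82 of them among the 24411 symbols of the count table. Of these 65 had enough counts to be tested, 7 had 0 counts in all 12 libraries, and the other 10 were too low.

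Chaperones bind unfolded or partly folded proteins and help them reach or keep their shape. HSP70 proteins hold short stretches of a client in a cycle of ATP hydrolysis that J-domain proteins (the DNAJ genes) start and exchange factors end, HSP90 acts on nearly folded clients such as kinases and receptors, and the ring chaperonins HSP60 and TRiC (also named CCT) enclose a client to fold it. Many of the cytosolic members are targets of the heat shock factor HSF1. Several members of the endoplasmic reticulum (ER) are targets of the unfolded protein response, which serves cells that make much secreted or granule protein, as myeloid precursors do.

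HoxB8 cells are bone marrow progenitors immortalised by Hoxb8, and estrogen in the medium keeps them from maturing. Per the labels, all 4 groups grew in RPMI with fetal bovine serum, stem cell factor from conditioned medium and estrogen, and lost the estrogen for 24 h before RNA was taken. Every population held both a pMIG vector, with or without Asxl1-MT2, and a pMICH vector, with or without CSF3R-T618I. Asxl1-MT2 is a truncated form of the chromatin regulator Asxl1, and CSF3R-T618I is a mutant form of the G-CSF receptor, which drives the growth of neutrophil precursors. The labels give the pMIG insert first: Empty/Empty is here called the control, Empty/T618I the T618I-only cells, Asxl1-MT2/Empty the Asxl1-MT2-only cells, and Asxl1-MT2/T618I the double cells. Each group has 3 libraries, named A, B and C. The constructs were added on top of the cells' own Asxl1 and Csf3r in 1 immortalised line, and the promoter that drives them is not given in the sources used here.

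Library totals ran from 9341984 to 10252291 counts. Asxl1 was at 119 ± 4.53 CPM (counts scaled to a common library size, mean ± SD, n = 3) in the control, 149 ± 16.9 in T618I-only cells, 1744 ± 79.8 in Asxl1-MT2-only cells and 1004 ± 83.7 in double cells. Csf3r was at 337, 324 and 232 CPM in the control and at 452, 456 and 386 in T618I-only cells. In Asxl1-MT2-only cells it was at 320, 307 and 253, and in double cells at 1688, 1334 and 967. The T618I-only and double cells therefore also differed in Csf3r RNA. How much of it comes from the construct, and its part in the chaperone results, was not tested. For the third library of Empty/Empty the genotype field names T618I although the title does not, and the letters of the columns are not linked to the numbers of the titles. Socs3, a feedback gene induced by cytokine receptors, was at 13.8, 11.9 and 12.4 CPM in the libraries of the control and at 167, 151 and 176 in those of T618I-only cells. No control library therefore lay near the T618I libraries for this gene, and each was also left out in turn. Mpo, the myeloperoxidase of granulocyte precursors, was at 29732 ± 4349 CPM in the control. Nothing in the labels says that the libraries are separate cultures, and the p-values may therefore reflect technical spread only. A gene is called where the p of the edgeR quasi-likelihood test, adjusted over all 11578 genes tested, was under 0.05.

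Sequence just upstream of some members holds letters that the heat shock and unfolded protein responses are known to read. The 5 stretches with a heat shock or ER stress element are shown because the genes concerned are described below. RefSeq promoters (build GRCm38.p6) were found for 67 of the 82 members, with 86 start sites, and the 250 bases before each start were searched on both strands. A heat shock element was taken as 3 units of GAA or TTC that alternate and lie 2 bases apart, and an ER stress element as CCAAT and CCACG with 9 bases between them. The capitals mark these letters, and overlapping matches are joined. Each sequence runs 5′ to 3′ on the strand of its gene.
Hspd1 (heat shock element, chr1:55088034-55088101, minus strand): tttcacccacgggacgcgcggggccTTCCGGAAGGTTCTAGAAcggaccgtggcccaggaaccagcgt
Dnajb6 (heat shock element, chr5:29735827-29735889, plus strand): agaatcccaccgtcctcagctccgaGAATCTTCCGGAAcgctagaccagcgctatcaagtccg
Hspa5 (ER stress element, chr2:34772000-34772068, plus strand): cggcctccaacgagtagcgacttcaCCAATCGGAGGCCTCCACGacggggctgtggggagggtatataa
Hsp90b1 (2 ER stress elements, chr10:86705508-86705681, minus strand): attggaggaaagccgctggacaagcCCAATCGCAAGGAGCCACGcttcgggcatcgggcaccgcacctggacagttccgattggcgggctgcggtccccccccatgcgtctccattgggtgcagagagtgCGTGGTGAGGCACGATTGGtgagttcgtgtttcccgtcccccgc
Dnajc3 (ER stress element, chr14:118937802-118937870, plus strand): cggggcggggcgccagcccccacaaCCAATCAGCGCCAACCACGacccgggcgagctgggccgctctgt

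Hspd1 and Hspe1, the genes of the mitochondrial chaperonin HSP60 and of its lid HSP10, start head to head on chromosome 1, so the first of these stretches, read from the other strand, is also the promoter of Hspe1. In Hspd1 a pair of overlapping heat shock elements begins 144 bases before the start site searched. The annotated span of Hspd1, given below, extends beyond this stretch, so the elements lie upstream of this start site but inside the span. The stress element lies 65 bases before the start in Hspa5 and 105 bases before it in Dnajc3. Of the 86 member promoters 4.65% held the heat shock element, against 0.466% of 32851 promoters of the same length. These are 4 promoters on 2 distinct stretches, since Hspd1 and Hspe1 share one and both start sites of Dnajb6 the other. Of the member promoters 3.49% held the ER stress element, against 0.113%. TGACGTGG, the unfolded protein response element, was found in the promoter of Dnajc25 (1.16% against 0.563%), and TGACGTCA, the cyclic AMP response element, in that of Dnajc27 (1.16% against 1.55%). The last 2 motifs begin with the same letters but differ at their ends, so the same stretch cannot match both. These are matches of letters and no measure of binding.

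Among the members called, those of the cytosol were mostly higher in cells with T618I alone and mostly lower in cells with both constructs than in cells with T618I alone. Those of the ER were lower with T618I, with 1 exception. In empty cells their share was near the 15.9% of all genes called lower, and in Asxl1-MT2 cells it was above the 22.8% of all genes. The large ER chaperones were lowest in cells with both constructs. Together the 82 members held 1.82 to 2.06% of the counts in the control, 2.03 to 2.15% in T618I-only cells, 1.68 to 1.95% in Asxl1-MT2-only cells and 1.30 to 1.5% in double cells. Their summed level was 18547 ± 1235 CPM, 20494 ± 597, 17917 ± 1409.7 and 14837 ± 744 in the same order. The summed levels of double cells lay below those of all other libraries. In bulk RNA, fewer cells of a type and less RNA per cell cannot be told apart. Markers of mast cells, neutrophils, monocytes and progenitors also differed between the groups, with values given last, and their part in the chaperone results was not tested. By place in the cell, the members of the cytosol and nucleus, with those not assigned, summed to 11506 ± 586 CPM in the control, 13952 ± 367 in T618I-only cells, 10879.8 ± 696 in Asxl1-MT2-only cells and 10099.6 ± 406 in double cells, where the last 2 groups overlap. In the same order, the ER members summed to 5105 ± 522, 4331 ± 359.6, 5152 ± 517 and 3159.8 ± 249 CPM and the mitochondrial members to 1565 ± 117, 1842 ± 65.6, 1498 ± 183 and 1213 ± 104 CPM. The ER sums of the control and of T618I-only cells just overlap.

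With T618I alone (T618I-only cells against the control), 17 of the 65 tested members were called higher, against 17.6% of all genes, and 7 were called lower, against 15.9%. The median log2 fold change was 0.06 for the members and 0.00 for all genes. Of the 17 that rose, 14 belong to the cytosol, 2 to the mitochondria (Hspd1 and Hspe1) and 1, Dnajc6, to clathrin-coated vesicles. None of the 14 tested ER members was called higher and 3 were called lower, namely Hspa5, Dnajb9 and Dnajc3. The number called higher was 11 without control library A and also 11 without library B.

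Asxl1-MT2 in cells with T618I (double cells against T618I-only cells) went with 35 members called lower, against 18.5% of all genes, and 4 called higher, against 25.4%. The median log2 fold change was -0.33 for the members and 0.01 for all genes. This comparison shares the T618I-only libraries with the first, so a high level in that group raises the one fold change and lowers the other. Lower calls covered 22 of 38 tested cytosolic, 7 of 14 ER and 5 of 10 mitochondrial members. The 4 that rose were Dnajc4, Hspa2, Dnajc5 and Dnajc14, and only 2 were called higher without T618I-only library B. The libraries of the 2 groups overlapped for 1 of the 39 called members (2.56%), Hspa2, against 3.6% of all called genes.

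T618I in cells with Asxl1-MT2 (double cells against Asxl1-MT2-only cells) went with 24 members called lower, against 22.8% of all genes, and 6 called higher, against 26.9%. The median was -0.18 for the members and -0.02 for all genes. Without double-cell library B 15 were called lower, and without its library A 3 were called higher. The 2 last comparisons share the double-cell libraries, whose TMM factors were the lowest of the series. With counts scaled to library totals only, the median of all genes moved to -0.116 and -0.121 in these comparisons. All genes then split into 2266 higher and 3514 lower in the first and 2585 and 3805 in the second (2939 and 2143, and 3118 and 2643, with TMM), and members into 1 and 42, and 3 and 39.

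**Figure D1:**
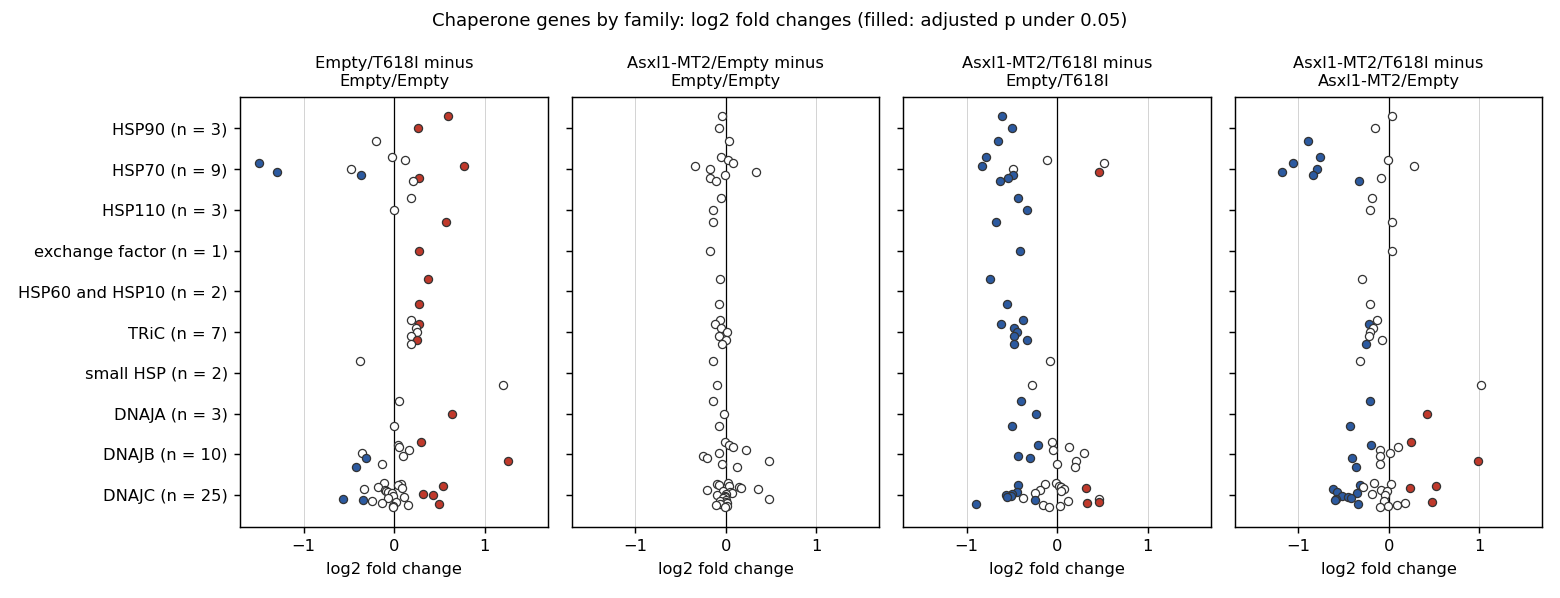
Log2 fold change (horizontal axis) of each tested member, 1 point per gene, in rows by family and in 4 panels by comparison; filled points passed the adjusted p of 0.05, red for higher and blue for lower. All 7 TRiC subunits, all 3 HSP90 genes and all 3 HSP110 genes are filled on the left of the third panel, and no point is filled in the second.

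The HSP90 family has an inducible cytosolic member (Hsp90aa1, chr12:110691036-110696395), a constitutive cytosolic member (Hsp90ab1) and the ER member Hsp90b1, known as GRP94. Hsp90aa1 was at 921, 993 and 1161 CPM in the libraries A, B and C of the control, 1468, 1537 and 1648 in T618I-only cells, 891, 1002 and 1088 in Asxl1-MT2-only cells and 967, 997 and 1085 in double cells. The T618I-only libraries stand above all others, and the other 3 groups overlap. Its log2 fold change was 0.60 ± 0.10 with T618I alone (adjusted p = 0.000106) and -0.61 ± 0.10 with Asxl1-MT2 added to T618I (adjusted p = 7.76e-05). Hsp90ab1 had the highest level per length of all members, at 1371 CPM per kb over the 12 libraries, followed by Hspa8 with 963, Hsp90b1 with 592 and Hspa5 with 462. Hsp90ab1 was at 3298, 3354 and 3700.4 CPM in the control, 3962, 4343 and 4149 in T618I-only cells, 3056, 3276 and 3487 in Asxl1-MT2-only cells and 2795, 2928 and 3119.7 in double cells. It moved as Hsp90aa1 did but less, with log2 fold changes of 0.27 ± 0.08 and -0.49 ± 0.08 (adjusted p = 0.0167 and 0.000112). The first of these calls was lost without control library A, control library B or T618I-only library B.

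Among the HSP70 genes, Hspa8 encodes the constitutive cytosolic HSC70, Hspa1a and Hspa1b the heat-inducible form, Hspa2 a form best known from testis, and Hspa14 a ribosome-bound form. Hspa8 was at 2507, 2308 and 2231 CPM in the control, 2842, 2972 and 2722 in T618I-only cells, 1946, 2125 and 2163 in Asxl1-MT2-only cells and 1910.4, 1919 and 2029 in double cells. It is again the T618I-only group that lies above the rest, with log2 fold changes of 0.28 ± 0.08 and -0.54 ± 0.08 (adjusted p = 0.00969 and 2.54e-05). Hspa2 did the reverse. It was at 31.8, 35.7 and 41.1 CPM in the control, 13.8, 11.9 and 18.5 in T618I-only cells, 47.6, 44.8 and 44.9 in Asxl1-MT2-only cells and 17.4, 19.2 and 24 in double cells. Both T618I groups lay below both groups without it, and the log2 fold change with T618I was -1.30 ± 0.15 in the empty background and -1.18 ± 0.14 with Asxl1-MT2 (adjusted p = 2.91e-06 and 3.21e-06), the largest fall of any member in the second comparison. Hspa14 passed no test and Hspa1l, a relative of Hspa1a, was called only with T618I in the Asxl1-MT2 cells, with a log2 fold change of -0.79 ± 0.20.

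The heat-inducible pair had few counts in all groups. Hspa1a was at 1.11, 1.59 and 1.24 CPM in the control and 0.481, 0.477 and 0.417 in T618I-only cells, and Hspa1b at 2.92, 4.08 and 2.99 and 6.54, 5.06 and 5.53. The tests called Hspa1a lower with T618I alone (log2 -1.49 ± 0.40) and Hspa1b higher (log2 0.77 ± 0.22). The coding sequences of the 2 genes are nearly identical, and how reads that match both were counted is not given in the sources used here, so the opposite directions are uncertain. Hspa1a rests on 4 to 16 counts per library, and the call of Hspa1b was lost without control library A. Hspb1, the inducible small heat shock protein HSP27, had 1 count in the control, 2 in double cells and 0 in both other groups. Of the small family only Hspb6 and Hspb9 were tested and neither was called. If reads that match both Hspa1a and Hspa1b were dropped, the counts understate both genes, which was not tested.

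The HSP110 proteins are large relatives of HSP70 that act as its exchange factors. Hsph1, their heat-inducible member, was at 93.8, 86.9 and 112 CPM in the control, 135, 146 and 154 in T618I-only cells, 82.3, 83.9 and 99.9 in Asxl1-MT2-only cells and 92.1, 89.8 and 90.3 in double cells. Only the T618I-only libraries stood apart, with a log2 fold change of 0.57 ± 0.10 over the control (adjusted p = 0.000201), and double cells lay below them by -0.68 ± 0.10 (adjusted p = 3.5e-05). Hspa4 and Hspa4l, the other 2, fell with Asxl1-MT2 added to T618I, by log2 -0.43 and -0.33, and were not called with T618I alone. The exchange factor Hspbp1 rose from 46.1 ± 1.28 to 55.7 ± 3.06 CPM with T618I and was at 41.9 ± 2.58 CPM in double cells, a fall of log2 -0.41.

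**Figure D2:**
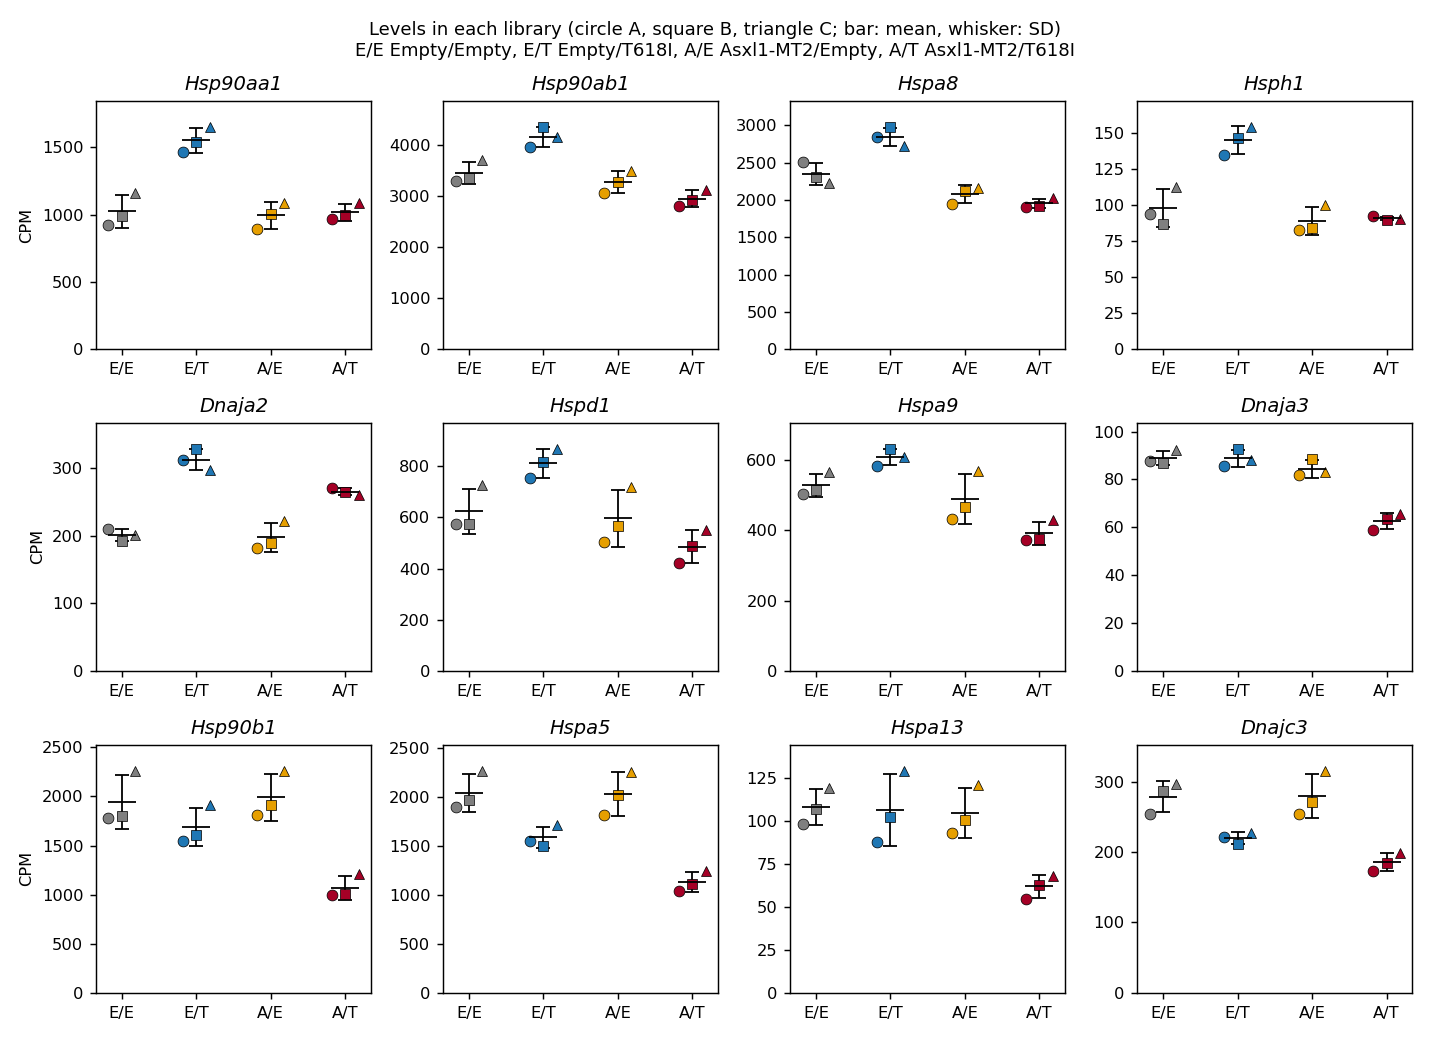
CPM (vertical axes, from 0) of 12 members in each library, by group, with the mean and SD; the top row and Dnaja2 are cytosolic, Hspd1, Hspa9 and Dnaja3 are mitochondrial, and the bottom row is of the ER. The T618I-only libraries are the highest for Hsp90aa1, Hsph1 and Dnaja2, and the double-cell libraries are the lowest for all 4 ER members.

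J-domain proteins start the ATP cycle of HSP70 and choose its clients. Dnaja2, a general partner of HSC70, was at 210.3, 192 and 201 CPM in the control, 312, 328 and 298 in T618I-only cells, 182, 189.5 and 222 in Asxl1-MT2-only cells and 271, 265 and 261 in double cells. Here both T618I groups were above both others, with log2 fold changes of 0.64 ± 0.08 and 0.42 ± 0.08 (adjusted p = 8.92e-06 and 0.000368). Dnaja1, its close relative, was not called with T618I alone and fell with Asxl1-MT2 added to T618I, from 189 ± 11.2 to 143 ± 6.73 CPM. Dnajb1, the HSF1 target HSP40, was at 63.9, 62.5 and 53.8 CPM in the control, 76.5, 75.3 and 69.8 in T618I-only cells, 62.6, 57.1 and 60.1 in Asxl1-MT2-only cells and 74.2, 68.7 and 69.7 in double cells. It rose with T618I in both backgrounds, by log2 0.30 and 0.24. The less abundant Dnajb5 and Dnajc12 did so as well. Dnajb5 went from 3.46 ± 0.499 to 8.30 ± 0.483 CPM and from 4.82 ± 0.431 to 9.60 ± 0.732, the largest rise of a called member with T618I alone (log2 1.26 ± 0.17), and Dnajc12 rose by log2 0.54 and 0.52.

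Further cytosolic J-domain genes rose with T618I alone and fell with Asxl1-MT2 added. Dnajc2, which binds the ribosome, was at 141 ± 13.3 CPM in the control, 176 ± 4.61 in T618I-only cells and 125 ± 5.92 in double cells, with log2 fold changes of 0.32 and -0.50. Dnajc21, needed for the maturation of the large ribosomal subunit, had log2 fold changes of 0.43 and -0.57. Dnajc6, known as auxilin, which helps HSC70 to strip clathrin from vesicles, was at 59.9, 61.2 and 75.6 CPM in the control, 82.2, 101 and 95 in T618I-only cells, 55.7, 62.7 and 70.1 in Asxl1-MT2-only cells and 42.6, 49.8 and 57 in double cells. Its log2 fold change of -0.90 ± 0.12 with Asxl1-MT2 added to T618I (adjusted p = 1.81e-05) was the largest fall of a called member there. Against Asxl1-MT2-only cells it was also called lower, by -0.33, although library C of double cells lies above library A of Asxl1-MT2-only cells. Dnajc5, the cysteine string protein of secretory vesicles, went the other way and was at 138 ± 5.67 CPM in T618I-only cells and 174 ± 14.3 in double cells (log2 0.33 ± 0.08, adjusted p = 0.00185). Of the 25 tested DNAJC genes 4 were called higher and 2 lower with T618I alone, and 3 higher and 8 lower with Asxl1-MT2 added to T618I. Among the 10 DNAJB genes these counts were 2 and 2, and 0 and 3. Of all genes 17.6% and 15.9% were called higher and lower in the first comparison and 25.4% and 18.5% in the second, so the DNAJC and DNAJB counts with T618I alone are near the background.

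TRiC folds actin and tubulin in a barrel of stacked rings in which each subunit has its own place. The members hold 7 tested subunits, Cct2, Cct3, Cct4, Cct5, Cct6a, Cct7 and Cct8. All 7 fell with Asxl1-MT2 added to T618I, from log2 -0.33 for Cct7 to -0.62 for Cct3, with adjusted p between 1.55e-05 (Cct3) and 0.00867 (Cct5). With T618I alone all 7 fold changes were above 0, in a narrow range from 0.18 to 0.28, and 2 (Cct3 and Cct7) were called. Cct3 was at 294, 286 and 344 CPM in the control, 374, 377 and 369.5 in T618I-only cells, 265, 286 and 298 in Asxl1-MT2-only cells and 225, 248 and 256 in double cells. Its T618I-only libraries lie above all others and its double-cell libraries below all others. Cct5 was at 282, 297 and 438 CPM in the control, 374, 405 and 431 in T618I-only cells, 322, 342 and 363 in Asxl1-MT2-only cells and 292, 300.0 and 299.8 in double cells. In control library C it was higher than in any T618I-only library, and this library was also the highest of its group for the other 6 subunits. Without the letter C libraries all 7 subunits were called higher with T618I alone, and 5 were with DESeq2. Without control library A, or without B, neither Cct3 nor Cct7 was called. Tcp1, the TRiC subunit whose symbol falls outside the naming rule, was called in the same directions, at 0.20 with T618I alone and -0.41 with Asxl1-MT2 added. The testis forms Cct6b and Cct8l1 had too few counts to be tested.

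**Figure D3:**
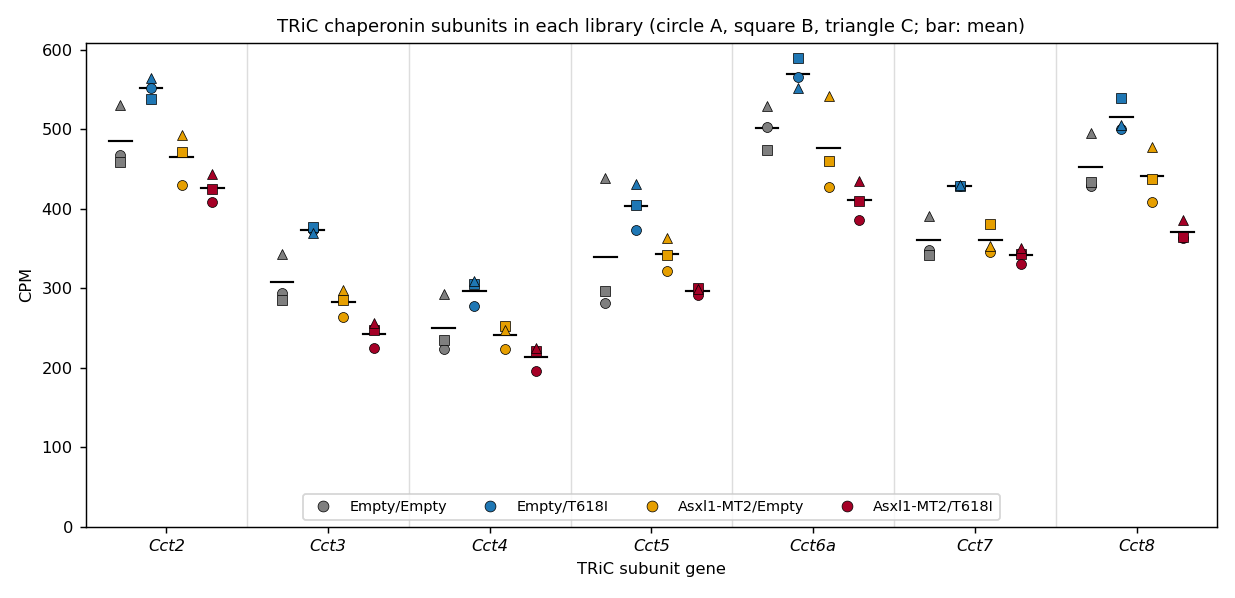
CPM (vertical axis, from 0) of the 7 tested TRiC subunit genes in each library, coloured by group, with a bar at the group mean. For every subunit the 3 double-cell libraries lie below the 3 T618I-only libraries, and the control triangle (library C) is the highest of its group.

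In the mitochondrion, Hspa9 (mortalin) pulls proteins in through the inner membrane and HSP60 with HSP10 folds them. Hspd1 (HSP60) was at 573, 575 and 725 CPM in the control, 752, 815 and 866 in T618I-only cells, 503, 567 and 719 in Asxl1-MT2-only cells and 421, 487 and 551 in double cells. Hspe1 (HSP10) was at 109.7, 92.6 and 107, 136, 126 and 112, 88.5, 97.5 and 107 and 78.6, 83.6 and 92 CPM in the same order of groups. Both were highest in T618I-only cells, and both had no overlap between T618I-only cells and double cells. The log2 fold changes of Hspd1 were 0.38 ± 0.13 with T618I alone and -0.74 ± 0.13 with Asxl1-MT2 added (adjusted p = 0.0302 and 0.000198), and those of Hspe1 were 0.28 ± 0.10 and -0.56 ± 0.10 (adjusted p = 0.0384 and 0.000233). Both calls with T618I alone were lost in part of the leave-outs, among them the one without control library B. The annotated spans of the pair (chr1:55077833-55088243 and chr1:55088148-55091317) overlap at their starts on opposite strands, so reads there cannot be told apart without strand. Hspa9 was at 501, 514 and 565 CPM in the control, 583, 629 and 608 in T618I-only cells, 432, 466 and 569 in Asxl1-MT2-only cells and 371, 374 and 428 in double cells, which put double cells below all other groups (log2 -0.63 ± 0.10 against T618I-only cells, adjusted p = 5.72e-05).

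Dnaja3 (TID1), the J-domain partner of Hspa9, was at 87.8, 86.9 and 92.4 CPM in the control, 85.5, 92.6 and 88.2 in T618I-only cells, 81.7, 88.5 and 82.9 in Asxl1-MT2-only cells and 59, 63.3 and 65.7 in double cells. The first 3 groups overlap and the double cells lie below them. Against T618I-only cells the log2 fold change was -0.50 ± 0.08, and against Asxl1-MT2-only cells -0.43 ± 0.08 (adjusted p = 5.32e-05 and 0.000178). Dnajc11, which is linked to the cristae, also fell in both of these comparisons, by log2 -0.44 and -0.32. Dnajc15 and Dnajc19, J-domain proteins of the import motor, were called lower with T618I in the Asxl1-MT2 background alone of the 4 comparisons, by log2 -0.62 and -0.35. Dnajc28 fell with T618I in both backgrounds, by -0.57 and -0.58, at no more than 7.58 CPM in any library, and the first of these calls was lost in 11 of 20 alternatives, DESeq2 among them. Dnajc4 rose with both, from 12.2 ± 1.85 CPM in T618I-only cells and 12.1 ± 2.32 in Asxl1-MT2-only cells to 16.9 ± 2.40, and with total-count scaling neither call was kept. Dnajc30 was not called.

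ER chaperones fold the proteins that enter the secretory pathway and the granules. Hspa5 (BiP; chr2:34772090-34776529), the HSP70 of the ER, was at 1899, 1964 and 2261 CPM in the control, 1545, 1502 and 1709 in T618I-only cells, 1811, 2013 and 2254 in Asxl1-MT2-only cells and 1042, 1115 and 1239 in double cells. Each T618I group lay below its own background, and the 3 double-cell libraries lay below all other 9. The log2 fold change with T618I was -0.36 ± 0.10 in the empty background (adjusted p = 0.00808) and -0.84 ± 0.10 in the Asxl1-MT2 background (adjusted p = 2.02e-06). Hsp90b1 (GRP94) was at 1777, 1797 and 2256 CPM in the control, 1548, 1606 and 1908 in T618I-only cells, 1807, 1909.5 and 2257 in Asxl1-MT2-only cells and 1000.4, 1002 and 1212 in double cells. With T618I alone its groups overlapped and it was not called (log2 -0.20 ± 0.12, adjusted p = 0.2), but it was called lower where the column letter entered the fit. In the Asxl1-MT2 background it fell by log2 -0.89 ± 0.12 (adjusted p = 7.52e-06). Hspa13 (STCH), a microsomal HSP70 relative, was at 108 ± 10.7, 106 ± 20.8 and 105 ± 14.4 CPM in the first 3 groups and at 61.9 ± 6.97 CPM in double cells (log2 -0.78 ± 0.13 against T618I-only cells, adjusted p = 0.000172).

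The J-domain genes of the ER split. Dnajc3 (p58IPK), which also restrains the kinase PERK, was at 254, 286 and 296 CPM in the control, 221, 212 and 228 in T618I-only cells, 253, 271 and 315 in Asxl1-MT2-only cells and 173, 185 and 199 in double cells, so that it moved as Hspa5 did. Its log2 fold change with T618I was -0.34 ± 0.09 in the empty background and -0.59 ± 0.09 with Asxl1-MT2 (adjusted p = 0.00699 and 3.8e-05). Dnajb9 (ERdj4), a target of XBP1 that holds IRE1 in check, was lower with T618I in both backgrounds, by log2 -0.43 and -0.36, and was not called between the T618I groups. Dnajb11 (ERdj3) and Dnajc25 were lower in double cells than in T618I-only cells, by -0.21 and -0.56. Dnajc18 fell by -0.44 in the same comparison. Dnajc14, which escorts receptors out of the ER, rose from 108 ± 4.27 CPM in T618I-only cells to 134 ± 6.87 (log2 0.31 ± 0.08). Dnajb12, Dnajb14, Dnajc1, Dnajc10 and Dnajc16 passed no test. In all, 8 of the 14 ER members were called lower and 1 higher with T618I in the Asxl1-MT2 background, against 22.8% and 26.9% of all genes. Mpo, a granule protein folded in the ER, was at 29732 ± 4349 CPM in the control, 12001 ± 943 in T618I-only cells, 30194 ± 1561 in Asxl1-MT2-only cells and 10741 ± 1749 in double cells, and its part in the ER result was not tested.

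Asxl1-MT2 in cells without T618I (Asxl1-MT2-only cells against the control) left all 65 tested members uncalled by edgeR and by DESeq2, against 1.24% of all genes called higher and 0.622% lower. At an unadjusted p under 0.05 there were 5 members higher and 1 lower by edgeR, and as many by DESeq2. The share of all genes at this threshold is not given here, so these counts are no result about the members. The median log2 fold change was -0.04, and the fold changes ran from -0.33 ± 0.25 (Hspa1b) to 0.47 ± 0.18 (Dnajb5), both genes of few counts. The largest members had narrower errors, at -0.08 ± 0.08 for Hsp90ab1, -0.18 ± 0.08 for Hspa8 and -0.01 ± 0.10 for Hspa5. Without the letter C libraries 1 member was called higher.

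The effect of T618I was then compared between the 2 backgrounds by the interaction term, that is, the log2 fold change of T618I in Asxl1-MT2 cells minus that in empty cells. It was called below 0 for 20 members, against 5.51% of all genes, and above 0 for 1, Dnajc5, against 14.1%. The median of the members was -0.27 and that of all genes 0.02. The 20 hold all 3 HSP90 genes, Hspd1 and Hspe1, 5 of 7 TRiC subunits, 4 of 9 HSP70 genes, Hsph1, Dnaja3 and 4 DNAJC genes, and none of the 10 DNAJB genes. The smallest adjusted p was that of Dnajc6, with an interaction of -0.83 ± 0.17 (adjusted p = 0.00267), followed by Cct3 (-0.50 ± 0.12, adjusted p = 0.00689), Hsp90b1 (-0.69 ± 0.17, adjusted p = 0.00738), Hsp90aa1 (-0.56 ± 0.14, adjusted p = 0.00756) and Dnaja3 (-0.42 ± 0.11, adjusted p = 0.0102). The count of 20 was 13 without control library B, 12 without double-cell library A and 13 without its library B, and the call of Dnajc5 was kept without 3 of the 12 libraries only. With total-count scaling it was 27, with a median of -0.0901 for all genes and 1312 higher and 1393 lower calls in place of 1635 and 638.

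Comparing the calls in the 2 backgrounds, which share no library, 4 members were higher with T618I in both (Dnaja2, Dnajb1, Dnajb5 and Dnajc12; 6.15%, against 12.7% of all genes) and 7 were lower in both (10.8%, against 9.8%: Dnajb4, Dnajb9, Dnajc28, Dnajc3, Hspa1a, Hspa2 and Hspa5). Cct3 and Dnajc6 were higher in the first and lower in the second, as were 0.259% of all genes. The chaperones with a negative interaction reached it by different routes. Hsp90aa1 and Hsph1 rose in empty cells and were not called in Asxl1-MT2 cells (log2 0.03 and 0.03), whereas Hspa13 and Dnaja3 were not called in empty cells (log2 -0.02 and 0.00) and fell in Asxl1-MT2 cells. Hspa5 fell in both, and further in the second.

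**Figure D4:**
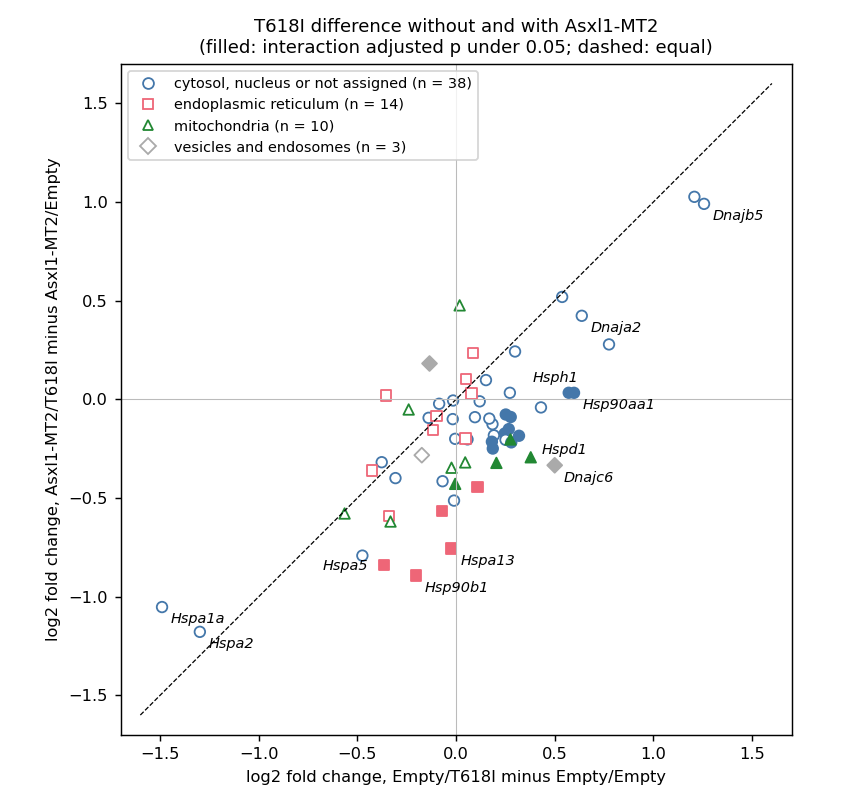
Log2 fold change of each tested member with T618I in empty cells (horizontal axis) and in Asxl1-MT2 cells (vertical axis), marked by place in the cell; filled symbols had an interaction with an adjusted p under 0.05 and the dashed line marks equal fold changes. The 20 filled symbols below the line include the ER genes Hsp90b1, Hspa5 and Hspa13 near the bottom and the cytosolic Hsp90aa1 and Hsph1 at about 0 on the vertical axis, and Dnajc5 is the filled symbol above the line.

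Across the 5 tests 49 of the 65 tested members were called at least once (75.4%, against 67.6% of all genes) and 16 never. Besides those named above, the 16 include Dnajb6, Dnajb13, Dnajc7, Dnajc8, Dnajc9, Dnajc13 and Dnajc17. Dnajb6, whose promoter holds a heat shock element, was at 88.5 ± 6.70 CPM in the control and 80.4 ± 5.99 in T618I-only cells. The members too low to test were Cct6b, Cct8l1, Dnaja4, Dnajb7, Dnajc22, Hspa12b, Hspb1, Hspb7, Hspb8 and Hspb11, and those with 0 counts were Dnajb3, Dnajb8, Dnajc5b, Dnajc5g, Hspa12a, Hspb2 and Hspb3. Of the remaining called members, Dnajb4 fell with T618I in both backgrounds, by log2 -0.31 and -0.40. The first of these calls was lost in 9 of 20 alternatives, among them DESeq2 and the fits without any 1 control library. Dnajb2, Dnajc24 and Dnajc27, all under 20 CPM in every library, were called lower in 1 or 2 comparisons with double cells.

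HSF1 and its relatives were examined as the regulators of the cytosolic members. Hsf1 was at 70.6 ± 13.6, 66.3 ± 7.87, 65.1 ± 6 and 57.2 ± 1.91 CPM in the control, T618I-only cells, Asxl1-MT2-only cells and double cells and was called in no comparison. Hsf2, its relative, was at 9.98 ± 1.48, 10.5 ± 1.44, 9.31 ± 1.24 and 8.95 ± 1.13 CPM and was not called either. Hsf4 and Hsf5 were too low to test. Hsbp1, a small protein that binds HSF1 and dampens it, was at 90.5, 84.9 and 70.0 CPM in the control and 65.4, 63.7 and 50.4 in T618I-only cells. The 2 groups do not overlap. Hsbp1 fell with T618I by log2 -0.45 ± 0.11 in empty cells and -0.32 ± 0.11 in Asxl1-MT2 cells (adjusted p = 0.00372 and 0.0212). Of a list of 22 textbook HSF1 targets, 12 of them members, 19 were tested. With T618I alone 11 were called higher and 1 lower (all genes 17.6% and 15.9%), with a median of 0.27 against 0.00 for all genes. With Asxl1-MT2 added to T618I 16 were called lower and 0 higher (all genes 18.5% and 25.4%), with a median of -0.41 against 0.01. The 8 tested targets that are no members gave 3 higher with T618I alone and 7 lower with Asxl1-MT2 added. Among them Ahsa1, which stimulates the ATPase of HSP90, rose by log2 0.45 and Bag3, an exchange factor for HSP70, by 0.39, while Fkbp4 and Cacybp, which bind HSP90 and its clients, fell by -0.51 and -0.41 with Asxl1-MT2 added.

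Partners of the members were read from lists chosen by function. Among 24 tested co-chaperones of HSP90 and HSP70, 4 were called higher and 2 lower with T618I alone, and 3 higher and 10 lower with Asxl1-MT2 added to T618I. Of all genes 17.6% and 15.9%, and 25.4% and 18.5%, were called in these directions, so the 4 co-chaperones called higher with T618I alone are near the background. Unc45a, which assists myosin folding, rose by log2 0.74 and Fkbp5 fell by -0.33 with T618I alone, and Bag2 fell by -0.79 and Sugt1 rose by 0.33 with Asxl1-MT2 added. Of 10 partners of TRiC, which include Tcp1 and the prefoldin subunits, 1 was called higher with T618I alone (Tcp1). With Asxl1-MT2 added 2 were called higher and 3 lower, and all these counts are near the same shares of all genes. There Pfdn4 fell by log2 -0.51 and Pfdn5 rose by 0.26. Of 12 mitochondrial folding partners 5 were lower and 0 higher with Asxl1-MT2 added, against 18.5% and 25.4% of all genes. Trap1, the mitochondrial HSP90, was at 164 ± 9.01 CPM in T618I-only cells and 116 ± 13 in double cells (log2 -0.50 ± 0.09), and Afg3l2, a protease of the inner membrane, fell by -0.46.

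ER folding partners moved with the ER members. Of 13 tested, 7 were called lower with T618I alone, 11 with Asxl1-MT2 added to T618I and 13 with T618I in the Asxl1-MT2 background, and 0 higher in each, against 15.9%, 18.5% and 22.8% of all genes called lower. Calr, the calcium-binding lectin calreticulin, was at 6653 ± 302 CPM in the control, 4744 ± 147 in T618I-only cells, 6793 ± 563 in Asxl1-MT2-only cells and 3610.5 ± 508 in double cells. Herpud1, which serves ER-associated degradation, had the largest fall with T618I alone, of log2 -0.85 ± 0.07, and the disulfide isomerases Pdia4 and Pdia6 had the largest falls in the Asxl1-MT2 background, of -0.93 ± 0.09 and -0.93 ± 0.08. Hyou1, the HSP110 of the ER whose symbol lies outside the naming rule, was at 735, 738 and 734 CPM in the control, 568, 614 and 577 in T618I-only cells, 621, 658 and 719.7 in Asxl1-MT2-only cells and 333, 387 and 443 in double cells. It was called lower in the same 3 comparisons as Hspa5 and Dnajc3.

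Markers of cell types and maturation moved with these groups. The 10 mast cell and basophil markers summed to 1093 to 1279 CPM in the control, 3246 to 5970.3 in T618I-only cells, 677 to 722 in Asxl1-MT2-only cells and 3302 to 3663 in double cells, and all 10 were called higher with T618I in each background. Of all genes 17.6% and 26.9% were called higher there. Fcer1a, which defines mast cells and basophils, had 0 counts in the control. In the same order of groups, the 16 neutrophil lineage markers, of which Mpo takes the most, summed to 34850.3 to 43857, 19064 to 22434, 39030.1 to 44510.0 and 38502 to 42142 CPM, and 11 were called higher and 0 lower with Asxl1-MT2 added to T618I. Of all genes 25.4% and 18.5% were called higher and lower in this comparison. The sums hide opposite changes. With T618I in the Asxl1-MT2 background Mpo, Ctsg, Prtn3, Elane and Gfi1 were called lower and 10 other markers higher (22.8% and 26.9% of all genes). Mpo went from 31426, 30716 and 28439 CPM in Asxl1-MT2-only cells to 9136, 10484 and 12605 in double cells, and S100a9, a calcium-binding protein of maturing neutrophils, from 449.7, 382 and 350.3 to 8270.1, 6319 and 5358. The 8 monocyte markers, 6 of them tested, summed to 450.4 to 557, 458 to 509, 494 to 678 and 837 to 1144 CPM. The 6 progenitor markers, of which Myb and Hoxb8 take the most, summed to 2199 to 2435, 1148 to 1258, 2142 to 2246 and 1126 to 1314 CPM. These sums hide opposite changes as well. Hoxb8 went from 332, 242 and 299 CPM in T618I-only cells to 586, 568 and 559 in double cells, and Cd34 from 233, 186 and 228 to 93.0, 140 and 133. Kit and Myb were lower in T618I-only cells than in the control, and Meis1 was higher (10.7, 7.55 and 7.12 against 13.3, 13.6 and 15.0 CPM). The 10 erythroid and megakaryocyte markers, 5 of them tested, summed to 49.7 to 62.6, 168 to 249.5, 33.1 to 37.5 and 113 to 156 CPM, with the globin genes Hbb-bs and Hbb-bt at 0 counts everywhere. The 6 lymphoid markers, 2 of them tested, summed to 2.11 to 2.98, 47.2 to 91.4, 2.37 to 3.29 and 35.2 to 40.9 CPM, with the T cell marker Cd3e at 0 counts. Immediate early genes, which can rise with handling as well as with signalling, summed to 181 to 206, 490.2 to 557, 173 to 199 and 613 to 811 CPM. Of 10 replication genes, 2 were called higher and 2 lower with T618I alone and 0 and 2 with Asxl1-MT2 added. Of all genes 17.6% and 15.9%, and 25.4% and 18.5%, were called in these directions, so the counts of 2 are near the background.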

How the data were processed

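RNA of 12 libraries was sequenced, with 3 libraries in each of 4 groups. The authors deposited 1 table of whole-number read counts per gene symbol, with no further normalization visible in the values. Trimmomatic, STAR, DESeq2 and the build mm10 are named in the submitters' processing notes without their role, and the counting tool, annotation and strand setting are not given in the sources used here. The table held 24411 symbols, of which 7965 had 0 counts everywhere. The 11578 symbols kept by filterByExpr hold 99.94% of the counts and were tested with edgeR 4.0.16 (TMM, quasi-likelihood test, 1 mean per group over all 12 libraries, Benjamini-Hochberg adjustment) in R 4.3.3, with DESeq2 1.42.0 and other settings as alternatives, and the script was tested on simulated data. CPM use the TMM-scaled library size and CPM per kb the longest coding transcript of GENCODE for GRCm38, which gives no length for Cct6a. SDs are over 3 libraries and the errors of log2 fold changes are SEs. With 9341984 to 10252291 counts per library, the SD over libraries carries the counting error as well, which is largest for genes of few counts.

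The members, partner lists and marker lists were chosen with earlier results of these data known. The rule for names took the core members of each family, in each comparison the 8 called members with the largest change in each direction, in each family the called member with the largest change and the 2 of the highest level, the 5 smallest interaction p-values, all HSF regulators, and the 2 largest called changes of each other list in each direction. The remaining members are named so that all are accounted for, and Bag3, Fkbp4 and Cacybp were chosen after their values were seen. Alternatives were other low-count filters and scalings, DESeq2, a fit of only the 2 groups compared, a replicate block and leaving out libraries.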

Additional observations from a re-analysis of the deposited data

Results flagged for a closer look

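For 21 members the log2 fold change of T618I differed between Asxl1-MT2 cells and empty cells by the interaction term of edgeR (quasi-likelihood test over 12 libraries, Benjamini-Hochberg adjustment over all genes tested). All values are the fold change in Asxl1-MT2 cells minus that in empty cells, ± SE, and those below 0 mean a lower fold change in Asxl1-MT2 cells.

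In the cytosol, the interaction was -0.56 ± 0.14 for Hsp90aa1 (adjusted p = 0.00756), -0.54 ± 0.14 for Hsph1 (adjusted p = 0.0122), -0.42 ± 0.11 for Hsp90ab1 (adjusted p = 0.0161) and -0.37 ± 0.11 for Hspa8 (adjusted p = 0.0247). It was also called for Dnajc2, the ribosome-bound J-domain protein, at -0.50 ± 0.13 (adjusted p = 0.011). Among the TRiC subunits it was -0.50 ± 0.12 for Cct3 (adjusted p = 0.00689), -0.43 ± 0.11 for Cct8 (adjusted p = 0.0128), -0.42 ± 0.14 for Cct4 (adjusted p = 0.0404), -0.40 ± 0.12 for Cct6a (adjusted p = 0.0328) and -0.33 ± 0.10 for Cct7 (adjusted p = 0.0344).

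In the mitochondria, the interaction was -0.67 ± 0.18 for Hspd1 (adjusted p = 0.015), -0.53 ± 0.14 for Hspa9 (adjusted p = 0.0121), -0.48 ± 0.14 for Hspe1 (adjusted p = 0.0227) and -0.42 ± 0.11 for Dnaja3 (adjusted p = 0.0102). In the ER it was -0.73 ± 0.19 for Hspa13 (adjusted p = 0.0108), -0.69 ± 0.17 for Hsp90b1 (adjusted p = 0.00738), -0.55 ± 0.17 for Dnajc25 (adjusted p = 0.0337), -0.50 ± 0.17 for Dnajc18 (adjusted p = 0.0436) and -0.48 ± 0.14 for Hspa5 (adjusted p = 0.0232).

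Of the vesicle members, auxilin had the largest difference, -0.83 ± 0.17 for Dnajc6 (adjusted p = 0.00267). Its neighbour in function, the cysteine string protein, had the one difference above 0, 0.32 ± 0.11 for Dnajc5 (adjusted p = 0.0463). The calls of Dnajc5 and Dnajc18 were each lost in 12 of 19 alternatives, and 12 of the 21 calls were kept in all 19.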

How the results depend on the processing

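No call of a member changed direction in any alternative. Under every alternative run, 12 of 24 calls were kept with T618I alone, 29 of 39 with Asxl1-MT2 added to T618I, 17 of 30 with T618I in Asxl1-MT2 cells and 12 of 21 in the interaction. With Asxl1-MT2 alone, the 215 genes called became 359 without a low-count filter and 386 without the letter C libraries, where 1 member was called higher. With counts scaled to library totals, the members called higher were 1 with Asxl1-MT2 added to T618I, 3 with T618I in Asxl1-MT2 cells (39 lower) and 0 in the interaction, and the last was also 0 without the filter and with RLE size factors; the cause was not tested.

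Leaving out 1 library at a time, all genes called ranged from 3189 to 4062 with T618I alone, from 60 to 276 with Asxl1-MT2 alone, from 4029 to 5408 with Asxl1-MT2 added to T618I, from 4752 to 5963 with T618I in Asxl1-MT2 cells and from 1646 to 2640 in the interaction. With Asxl1-MT2 alone the 60 came without Asxl1-MT2-only library A, and without its library B, or without control library A, B or C, it was 106, 101, 104 and 136. Members called higher and lower ranged from 11 to 22 and from 5 to 7 with T618I alone, from 0 to 0 for both with Asxl1-MT2 alone, from 2 to 4 and from 29 to 37 with Asxl1-MT2 added, from 3 to 7 and from 15 to 26 with T618I in Asxl1-MT2 cells, and from 0 to 1 and from 12 to 25 in the interaction.

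The column letters are not linked to the numbers of the labels, and they paired the libraries only in part. Correlations of 18 same-letter pairs ran from -0.0606 to 0.22, 7 were over 0.1, and 6 of 12 libraries correlated best with their own letter. Among control, T618I-only and Asxl1-MT2-only cells, pairs of letter A gave 0.147 to 0.168 and pairs of letter C 0.181 to 0.22. A with C gave -0.226 to -0.116 there, and same-letter pairs with double cells gave -0.0606 to 0.106. The main fit leaves the letter out. With the letter as a replicate block, members called higher and lower were 23 and 10 with T618I alone, 0 and 0 with Asxl1-MT2 alone, 4 and 35 with Asxl1-MT2 added, 7 and 29 with T618I in Asxl1-MT2 cells and 1 and 25 in the interaction, and all genes called were 4285, 317, 5444, 6114 and 2851. Hsp90b1, uncalled with T618I alone, was then called lower (log2 -0.20 ± 0.06, adjusted p = 0.0181).

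Depth limits the lowest members: Hspa1a, Dnajb5 and Dnajc28 rest on few counts, and Hspb1 could not be tested. The fits assume equal library quality, and 3 libraries per group leave small differences undetected.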
